A study of Mus musculus with 2 samples.

Results

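The interferon gamma axis was followed in 2 J558 allografts through 6 genes: the cytokine gene Ifng, the receptor chains Ifngr1 and Ifngr2, the receptor kinase Jak2, and Irf1 and Socs1, which are switched on by the signal. These 6 genes were taken by name from 32285 features, with earlier results of these data known. J558 is a plasma cell myeloma line of BALB/c origin, labelled as B lymphocyte, and it was grown under the skin of female BALB/c mice (listed by the study at 4 weeks of age, with no statement of whether at purchase or at grafting) that keep their own immune system. One allograft came from a mouse given TAK-931, an inhibitor of the replication kinase CDC7, by mouth at 60 mg/kg once a day, and the other from a mouse given 0.5% methylcellulose as vehicle. Both were taken on day 6, dissociated with enzymes, freed of red cells and made into single-cell 3′ libraries. The study chose each allograft as a representative of its group, so the comparison is between 1 library and 1 library. No test between treatments was possible, and the ranges in brackets are 95% intervals that cover counting error only.

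Interferon gamma is made mainly by activated T cells and natural killer (NK) cells. It binds a receptor of the ligand-binding chain IFNGR1 and the signalling chain IFNGR2, which bring the kinases JAK1 and JAK2 together. The signal then reaches the nucleus, where it acts on gamma-activated sites (GAS) in the DNA. IRF1 is one of the first proteins made in response and acts on interferon-stimulated response elements in later target genes, while SOCS1 binds the JAK kinases and shuts the signal down. In tumors the pathway is known for raising antigen presentation, for the chemokines CXCL9 and CXCL10 that draw T cells, and for the checkpoint ligand PD-L1, the product of Cd274.

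In the mouse build GRCm38 (gencode vM21), Ifng (ENSMUSG00000055170) lies at chr10:118441046-118445892 on the plus strand and Ifngr1 (ENSMUSG00000020009) at chr10:19591949-19610229 on the plus strand. Ifngr2 (ENSMUSG00000022965) lies at chr16:91547072-91565623 and Jak2 (ENSMUSG00000024789) at chr19:29251828-29313080, both on the plus strand. Irf1 (ENSMUSG00000018899) spans chr11:53770014-53778374 on the plus strand and Socs1 (ENSMUSG00000038037) chr16:10782240-10785536 on the minus strand. The 250 bases before the start of Irf1 and Socs1, the 2 members that moved together in several cell classes, are shown from RefSeq (GRCm38.p6), at chr11:53769764-53770013 on the plus strand and chr16:10785537-10785786 on the minus strand. Capitals mark a GAS match (TTCNNNGAA) in Irf1 and, in Socs1, 2 overlapping matches to the pair of half-sites of an interferon response element (GAAA, 2 bases of any kind, GAAA).
Irf1: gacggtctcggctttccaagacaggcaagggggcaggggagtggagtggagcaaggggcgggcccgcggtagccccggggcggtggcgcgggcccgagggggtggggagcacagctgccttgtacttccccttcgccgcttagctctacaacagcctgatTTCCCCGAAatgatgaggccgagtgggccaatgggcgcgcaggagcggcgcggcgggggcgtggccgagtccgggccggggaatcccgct
Socs1: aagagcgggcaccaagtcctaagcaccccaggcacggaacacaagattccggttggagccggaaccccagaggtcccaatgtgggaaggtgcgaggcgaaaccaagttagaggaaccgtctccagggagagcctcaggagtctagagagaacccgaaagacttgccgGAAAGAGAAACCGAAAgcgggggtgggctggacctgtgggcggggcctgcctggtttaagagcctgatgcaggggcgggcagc
The Irf1 match, TTCCCCGAA, lay 90 to 82 bases before the start. The Socs1 matches, GAAAGAGAAA and GAAACCGAAA, lay 83 to 74 and 77 to 68 bases before it. Among the other members, only the Ifng window held a match, TTCAGAGAA, 249 to 241 bases before its start. The Ifngr1, Ifngr2, Jak2 and second Irf1 windows held neither set of letters. Searched on both strands, GAS letters occurred in 2306 of 32851 promoter windows of this length (7.02%) and the pair of half-sites in 978 (2.98%). A match of letters is a description of sequence and not a site shown to be bound.

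After the study's limits (over 2000 genes and under 15% mitochondrial counts per barcode), 3441 vehicle and 3488 TAK-931 cells were kept, with medians of 40504 and 15097 unique molecular identifiers (UMIs, tags that count single transcripts). The libraries shared 8 barcodes, of which 1 was kept in both. Cells were named from marker genes, and a name ending in "-like" means that the cell carried at least 3 markers of that type. J558-like cells were 86.1% of the vehicle and 2.61% of the TAK-931 library, and monocyte/macrophage-like cells 5.84% and 55.2%. T- and NK-like cells numbered 18 and 674, of which 8 and 497 were CD8 T-like. Endothelial-, fibroblast- and mural-like cells numbered 109 and 252. Cells carrying markers of 2 lineages (52 and 209) were kept apart from every class. Levels are given as UMIs per 1000000 UMIs of the class (CPM).

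Ifng was the member that differed most between the allografts. The vehicle library held 10 Ifng UMIs in all kept cells, or 0.0709 CPM (0.0340–0.130), and the TAK-931 library 1215, or 17.5 CPM (16.6–18.5). That is a 247-fold higher level, a log2 difference of 7.95 (7.07–9.01). The size rests on the limit on genes per barcode, since 12 of the 22 Ifng UMIs of the vehicle library lay in barcodes with 2000 or fewer genes. Over all barcodes the levels were 0.152 and 18.2 CPM (22 and 1411 UMIs), and with over 500 genes the log2 difference was 6.95, below that interval. Over all kept cells the log2 difference was 3.71 for Ifngr1 (14.8 and 195 CPM), 3.24 for Ifngr2 (10.3 and 97.3 CPM), 3.52 for Irf1 (14.1 and 162 CPM), 3.36 for Socs1 (7.54 and 77.4 CPM) and 0.67 for Jak2 (40.0 and 63.6 CPM). Thus 5 of 6 members were at least 2-fold higher and none was 2-fold lower. Of all 18139 genes with at least 10 UMIs in the 2 libraries together, 37.3% were at least 2-fold higher and 19% at least 2-fold lower, with a median log2 difference of 0.33. In sums of whole allografts, more cells of a type and more RNA per cell cannot be told apart. When the difference was divided into a part from the class makeup and a part from levels within classes, the makeup held 54.9% of it for Ifng, 72.5% for Ifngr1, 76.0% for Ifngr2, 87.0% for Jak2, 56.2% for Irf1 and 56.0% for Socs1. For Ifng the division rests on the 10 vehicle UMIs. The values below therefore compare cells of 1 class.

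**Figure D1:**
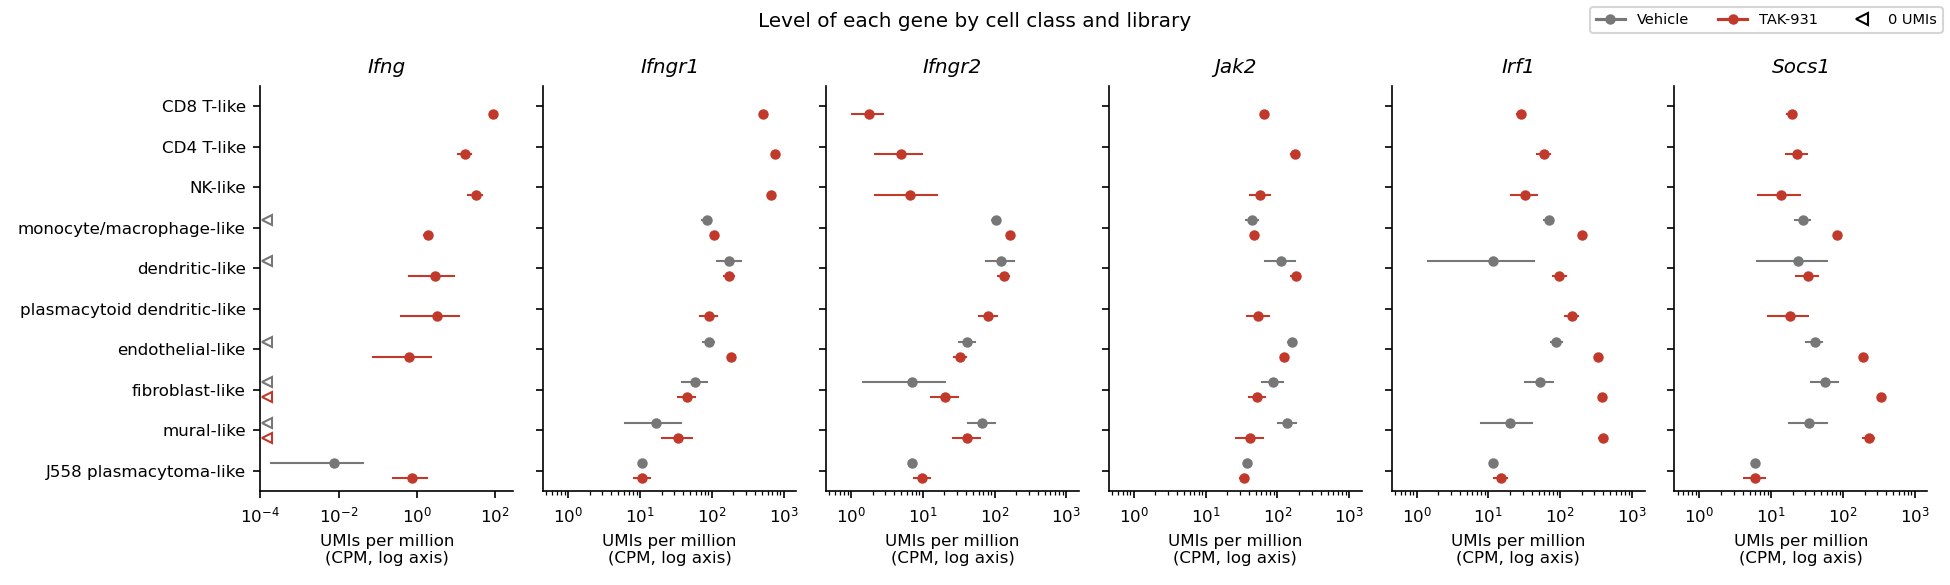
CPM (log axis) of the 6 members in each cell class of the vehicle and TAK-931 libraries, with 95% Poisson bars and triangles at the left edge for 0 UMIs. Classes with under 10 cells in a library are not drawn. Ifng stood highest in CD8 T-like cells at 91.2 CPM, and Ifngr2 in the same cells stood at 1.77 CPM.

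CD8 T-like cells carried most of the Ifng transcripts of the TAK-931 allograft. They held 876 of the 1215 UMIs, or 72.1% (69.5–74.6, exact binomial), while making up 14.2% of kept cells. Together, T- and NK-like cells held 933 UMIs or 76.8% (74.3–79.1). Cells of 2 lineages held a further 183 UMIs (15.1%), of which 102 lay in 55 cells with macrophage and T or NK markers and 48 in 13 cells with J558 and T or NK markers. Their part as droplets that caught 2 cells was not tested. Monocyte/macrophage-like cells, the largest class, held 63 UMIs or 5.19%. Of those 63, 44 came from 1 cell, which carried 308 macrophage-marker UMIs and 3 T-marker UMIs against a median of 103 T-marker UMIs in CD8 T-like cells. Without that cell the class stood at 0.595 CPM, and free RNA alone would give it 0.601 CPM.

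**Figure D2:**
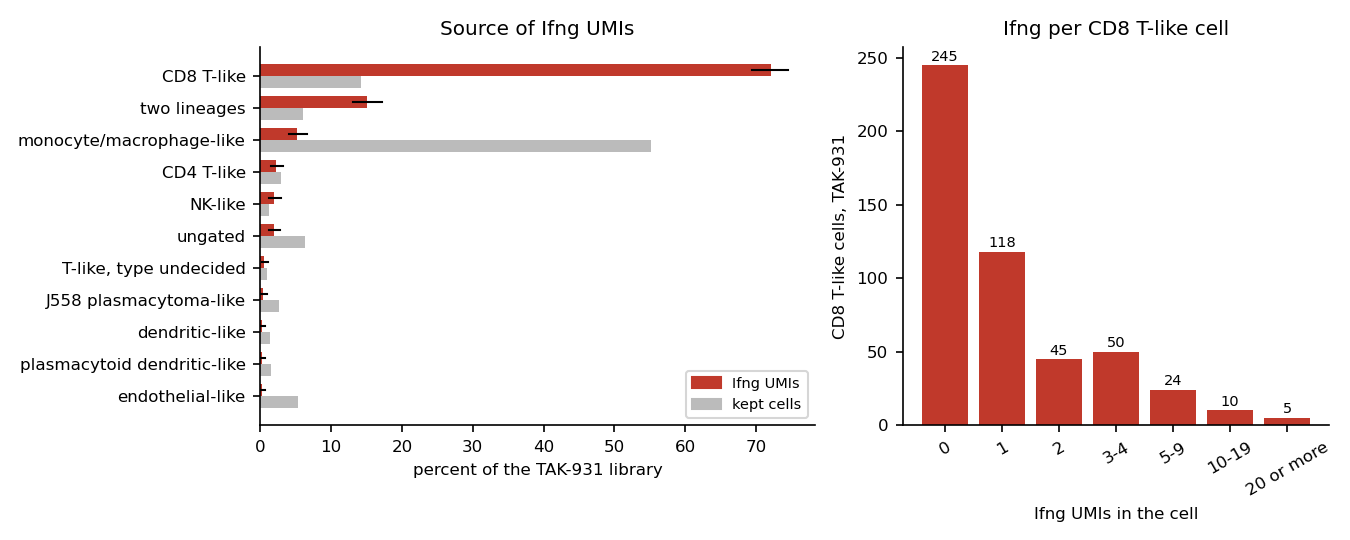
Ifng in the TAK-931 library: the percent of the 1215 Ifng UMIs and the percent of kept cells in each class (left), and the number of CD8 T-like cells by Ifng UMIs per cell (right). CD8 T-like cells held 72.1% of the UMIs and were 14.2% of cells, and 245 of the 497 had no Ifng UMI.

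Per transcript, Ifng stood at 91.2 CPM (85.2–97.4) in CD8 T-like, 32.4 (20.8–48.2) in NK-like and 16.9 (11.1–24.6) in CD4 T-like cells of the TAK-931 allograft. It stood at 17.2 (6.33–37.5) in T-like cells of undecided type. The intervals of NK-like, CD4 T-like and undecided cells overlapped, and that of CD8 T-like cells lay above them. The level was 1.97 CPM in monocyte/macrophage-like, 3.02 in dendritic-like, 0.783 in J558-like and 0.639 in endothelial-like cells, and no UMI was found in 40 fibroblast-like, 28 mural-like or 11 B-like cells. Most of the monocyte/macrophage-like level came from the 1 cell with 44 UMIs, so no fold against that class is given. In the CD4 T-like class 15 of the 27 UMIs came from 1 cell.

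Ifng was uneven among CD8 T-like cells. Of the 497 cells, 252 (50.7%) had at least 1 UMI, 118 had exactly 1, 39 had 5 or more and the highest had 56. The 10 highest cells held 33.0% of the transcripts, and 29 cells held at least 50%. With every cell thinned to 4000 UMIs, so that depth was equal, 22.9% (19.3–26.9) of CD8 T-like, 14.0% (5.30–27.9) of NK-like, 4.90% (1.61–11.1) of CD4 T-like and 0.312% (0.115–0.678) of monocyte/macrophage-like cells had an Ifng UMI. The unthinned shares were 32.6%, 10.8% and 0.884% in the last 3, and median depths before thinning were 14592 UMIs in CD8 T-like and 14773.5 in monocyte/macrophage-like cells. None of the 91 J558-like cells had one after thinning, which allows a share of up to 3.30% with a UMI at that depth by a floor of 3 counts (exact binomial interval 0–3.97%), and 4 of them (4.40%) had one before thinning, at a median of 70878 UMIs. CD8 T-like cells with a Gzmb UMI (299 cells, the cytotoxic protease granzyme B) stood at 106 CPM (97.8–114) and those without at 64.8 (56.5–73.9). At equal depth the shares with an Ifng UMI were 23.7% and 21.7%. Cells with a cycling marker stood at 99.3 CPM and the others at 73.1 CPM.

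In the vehicle allograft Ifng was rare. Its 10 UMIs lay in 7 cells, with 4 in 1 NK-like cell, 1 in each of 2 CD8 T-like cells, 1 in each of 2 T-like cells of undecided type, 1 in a J558-like cell and 1 in a cell of no class. The 8 vehicle CD8 T-like cells stood at 15.1 CPM (1.83–54.6), which rests on 2 UMIs. All 18 T- and NK-like cells together stood at 28.2 CPM (12.2–55.6), and the 674 of the TAK-931 allograft at 75.9 (71.1–80.9). Those intervals do not overlap, but the vehicle value comes from 8 UMIs, and the pool mixes classes in unlike shares. CD8 T-like cells were 8 of the 18 and 497 of the 674. Within classes Ifng stood at 15.1 and 91.2 CPM in CD8 T-like and at 0 and 16.9 in CD4 T-like cells. It went the other way in NK-like (57.5 and 32.4 CPM) and undecided T-like cells (62.7 and 17.2 CPM), from 4 and 2 vehicle UMIs.

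CD8 T-like cells with an Ifng UMI at 4000 UMIs (114 cells) were compared with the other 383. Median depths before thinning were 14569 and 14719 UMIs. A UMI of Adam8, a membrane protease of leukocytes, was found in 31.6% (23.2–40.9) of cells with Ifng and 12.01% (8.93–15.7) of the others. Nedd9, a docking protein of adhesion signalling, was found in 43.9% and 25.8%, Thy1, a surface protein of T cells, in 80.7% and 63.4%, and Tnfaip3, the feedback inhibitor A20 of NF-kappaB signalling, in 78.1% and 62.9%. Dazap2 (61.4% and 42.8%), Spty2d1 (46.5% and 29.0%), Cmip (61.4% and 46.2%) and Gatad2a (57.0% and 42.0%) completed the 8 largest positive differences. The 4 largest negative ones were Micos13 (25.4% and 47.3%), Polr2m (14.9% and 33.2%), Mrps33 (18.4% and 35.0%) and Zbp1 (9.65% and 24.8%). These 12 genes were picked by the size of the difference, which is a description. Tbx21, the T-box factor that drives Ifng, stood at 13.2% (7.56–20.8) and 5.74% (3.63–8.57), with intervals that overlap. Eomes, a relative of Tbx21, stood at 37.7% and 39.2%. Among listed genes, the peptide transporter gene Tap1 (49.1% and 38.9%) and the receptor gene Il12rb2 (19.3% and 10.97%) differed by more points. Their intervals overlapped too. Shares with an Ifngr1 UMI were alike, at 86.8% and 85.9%, but shares this high say little about its level. Irf1 did not separate the cells, at 7.02% (3.08–13.4) and 11.5% (8.47–15.1).

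The 2 receptor chains had opposite orders in T- and NK-like against monocyte/macrophage-like cells of the TAK-931 allograft, and both were low in J558-like and fibroblast-like cells. Ifngr1, the ligand-binding chain, was highest in T- and NK-like cells, at 771 CPM (729–816) in CD4 T-like, 670.0 (612–732) in NK-like, 629 (549–718) in undecided T-like and 511 (496–525) in CD8 T-like cells. It stood at 186 in endothelial-like, 175 in dendritic-like, 106 in monocyte/macrophage-like, 92.0 in plasmacytoid dendritic-like, 46.7 in B-like, 45.4 in fibroblast-like, 34.2 in mural-like and 10.8 in J558-like cells. The intervals of CD4 T-like and NK-like cells overlapped at their edges, those of NK-like and undecided T-like cells overlapped, as did those of endothelial- and dendritic-like cells, and neighbours from monocyte/macrophage-like down to mural-like cells.

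Ifngr2, the signalling chain, was highest in myeloid cells and did not exceed the free-RNA background in CD8 T-like cells by more than counting error. It stood at 166 CPM (162–171) in monocyte/macrophage-like, 134 (112–159) in dendritic-like, 101.2 (53.9–173) in B-like and 82.1 (61.0–108) in plasmacytoid dendritic-like cells. Mural-like cells stood at 41.4, endothelial-like at 33.5, fibroblast-like at 20.5, undecided T-like at 17.2, J558-like at 9.86, NK-like at 6.75 and CD4 T-like at 5.01 CPM. CD8 T-like cells were lowest, at 1.77 CPM (1.03–2.83). Their 17 UMIs compare with 13.3 that free RNA would give, so the level is read as background, not as expression. With cells of 2 lineages put in their best class it was 11.02 CPM. In Ifngr1, by contrast, CD8 T-like cells were 4.82-fold (4.61–5.03) above monocyte/macrophage-like cells. At equal depth, 86.1% of CD8 T-like cells had an Ifngr1 UMI and 0.805% an Ifngr2 UMI, and in monocyte/macrophage-like cells the shares were 31.4% and 47.3%.

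Over all kept cells the receptor chains differed less between treatments than Ifng. T- and NK-like cells together held Ifngr1 at 261 CPM in vehicle and 557 in TAK-931 (74 and 6852 UMIs), a log2 difference of 1.09 (0.76–1.44). Among them the 5 vehicle NK-like cells stood at 144 and the 43 TAK-931 ones at 670.0 CPM (10 and 496 UMIs), while their Ifng stood at 57.5 and 32.4 CPM from 4 and 24 UMIs. The NK-like class had UMIs of 5 of its 6 markers, at 805 and 698 CPM in sum, beside T markers at 245 and 503 CPM. In monocyte/macrophage-like cells Ifngr1 stood at 84.8 CPM in vehicle and 106 in TAK-931, a log2 difference of 0.32 (0.12–0.53), and Ifngr2 at 104 and 166, a difference of 0.68 (0.50–0.86). In endothelial-like cells Ifngr1 stood at 90.5 and 186 CPM, a difference of 1.04 (0.76–1.32), and Ifngr2 at 41.5 and 33.5 CPM, a difference of -0.31 that became 0.49 when cells took the class of their cluster. In fibroblast-like cells Ifngr2 rested on 3 vehicle and 24 TAK-931 UMIs (7.09 and 20.5 CPM), and in mural-like cells Ifngr1 rested on 6 and 19 (16.9 and 34.2 CPM). J558-like cells held the same Ifngr1 level within counting error, 10.8 CPM in both libraries with a log2 difference of -0.00 (-0.37 to 0.35). Their Ifngr2 stood at 7.06 and 9.86 CPM, a difference of 0.48 (0.09–0.85). Leaving out the 10 cells with most Ifngr2 UMIs in each library gave -0.13, but took 44.4% of the UMIs in TAK-931 against 3.86% in vehicle, which lowers the ratio by construction. Ifngr1 in J558-like cells became 1.52 when cells of 2 lineages were put in their best class.

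Jak2, the kinase that is bound to IFNGR2, was the member with the flattest pattern. In the TAK-931 allograft it ran from 34.3 CPM (29.9–39.1) in J558-like to 181 (156–210) in dendritic-like cells, with 174 in CD4 T-like, 125 in endothelial-like, 65.2 in CD8 T-like and 47.0 in monocyte/macrophage-like cells. It did not differ beyond counting error between treatments in monocyte/macrophage-like cells (44.8 and 47.0 CPM, log2 difference 0.07, interval -0.20 to 0.36) or in J558-like cells (37.7 and 34.3 CPM, -0.14, interval -0.34 to 0.06). Dendritic-like cells stood at 112 and 181 CPM, a difference of 0.70 (0.01–1.46) from 10 vehicle cells. In mural-like cells Jak2 stood at 138 and 41.4 CPM, a difference of -1.74 (-2.52 to -0.99), with 17 of the 49 vehicle UMIs in 1 cell, and the difference was -0.32 when cells took the class of their cluster. In fibroblast-like cells it stood at 87.4 and 52.2 CPM (-0.74, interval -1.36 to -0.11), from 37 UMIs in 14 cells and 61 in 40, and the difference was -0.21 when cells took the class of their cluster. In endothelial-like cells it stood at 161 and 125 CPM (-0.37). There the median gene with at least 50 UMIs in each sum lay at -0.27, and relative to that median Jak2 stood at -0.10.

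Jak1, the kinase bound to IFNGR1, did not exceed the level of free RNA in J558-like cells. It was chosen for mention after its values were seen. Vehicle J558-like cells held 49 Jak1 UMIs in 2964 cells, or 0.371 CPM, and free RNA alone would give 0.699 CPM. TAK-931 J558-like cells held 12 UMIs, or 1.88 CPM, against a free-RNA level of 2.31 CPM. In the TAK-931 allograft Jak1 stood at 144 CPM in monocyte/macrophage-like, 255 in endothelial-like and 364 in CD8 T-like cells. The vehicle J558-like cells did hold Jak2 at 37.7 CPM.

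Irf1 was higher in the TAK-931 allograft in macrophage-like, vascular and stromal cells. In monocyte/macrophage-like cells it stood at 69.3 CPM (59.5–80.2) in vehicle and 201 (196–205) in TAK-931, 2.89-fold higher with a log2 difference of 1.53 (1.32–1.76). In endothelial-like cells it stood at 88.5 and 341 CPM, 3.85-fold higher (1.95, interval 1.68–2.22). In fibroblast-like cells it stood at 52.0 and 378 CPM, 7.28-fold higher (2.86, interval 2.25–3.55). In mural-like cells, from 7 and 218 UMIs, it stood at 19.7 and 393 CPM, 19.9-fold higher (4.32, interval 3.25–5.65). At equal depth the share of cells with an Irf1 UMI was 19.4% and 45.7% in monocyte/macrophage-like, 26.6% and 60.3% in endothelial-like, 28.6% and 62.5% in fibroblast-like and 6.25% and 64.3% in mural-like cells. Dendritic-like cells stood at 11.8 and 97.7 CPM, but the vehicle value rests on 2 UMIs (log2 difference 3.05, interval 1.16–6.12).

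Socs1, the feedback inhibitor, was higher in the same 4 classes as Irf1. It stood at 27.6 CPM (21.6–34.9) and 82.0 (78.8–85.2) in monocyte/macrophage-like cells, 2.97-fold higher in TAK-931 (log2 1.57, interval 1.23–1.93). In endothelial-like cells it stood at 40.2 and 189 CPM, 4.69-fold higher (2.23, interval 1.84–2.64). In fibroblast-like cells it stood at 56.7 and 337 CPM (2.57, interval 1.98–3.23) and in mural-like cells at 33.8 and 230.5 CPM (2.77, interval 1.92–3.76). At equal depth the shares of cells with a Socs1 UMI were 7.96% and 22.7%, 13.9% and 33.2%, 35.7% and 60.0%, and 6.25% and 53.6% in these 4 classes in the same order. Fibroblast-like cells held the highest Socs1 level of the TAK-931 allograft and J558-like cells the lowest, at 5.95 CPM.

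Genes that tissue dissociation is known to raise moved with these values. Summed over 8 such genes (Fos, Fosb, Jun, Junb, Egr1, Atf3, Hspa1a and Hspa1b, listed after the data were seen), the level was 4272 CPM in vehicle and 5035 in TAK-931 monocyte/macrophage-like cells. It was 7245 and 9439 CPM in endothelial-like, 8858 and 13636 in fibroblast-like and 8140 and 14192 in mural-like cells. It was 1672 and 3027 CPM in dendritic-like cells and, the other way, 750 and 569 in J558-like cells. Its part in the Irf1 and Socs1 values was not tested.

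Counted against all genes, the members gave the following shares. In monocyte/macrophage-like cells 3 of 6 members were at least 2-fold higher and none lower, against 13.3% higher and 9.09% lower among 13395 genes. One of these 3 was Ifng, which had no vehicle UMI. Its count rests on the 1 cell with 44 of the 63 UMIs, and without that cell its 0.595 CPM lay below the vehicle floor of 1.17 CPM. In endothelial-like cells Ifngr1, Irf1 and Socs1 were 2-fold higher, 3 of 5 members with enough UMIs, against 10.9% higher and 10.4% lower among 11262 genes. Ifngr1 lay near the 2-fold line and fell under it with over 1000 (0.96) or over 500 genes per barcode (0.96). In fibroblast-like cells Ifngr2, Irf1 and Socs1 were, 3 of 5, against 12.6% higher and 15.3% lower among 8999 genes. The log2 interval of Ifngr2 (-0.18 to 3.91) held 0, and it was 0.65 with cells of 2 lineages in their best class. In mural-like cells Ifngr1, Irf1 and Socs1 were higher and Jak2 lower, of 5, against 18.1% higher and 7.25% lower among 7433 genes. The log2 interval of Ifngr1 (-0.36 to 2.63) held 0 and it was 0.78 with free RNA subtracted, while Jak2 was -0.32 with cluster classes. In dendritic-like cells only Irf1 was, of 5, against 22.8% higher and 7.81% lower among 6758 genes. In J558-like cells 0 of 5 members were 2-fold higher or lower, against 9.28% higher and 7.63% lower among 14608 genes. Scaling by the median gene in place of the total moved these log2 differences by 0.01 in J558-like, 0.11 in monocyte/macrophage-like, 0.12 in dendritic-like, 0.16 in mural-like, 0.27 in endothelial-like and 0.32 in fibroblast-like cells, upward in each.

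**Figure D3:**
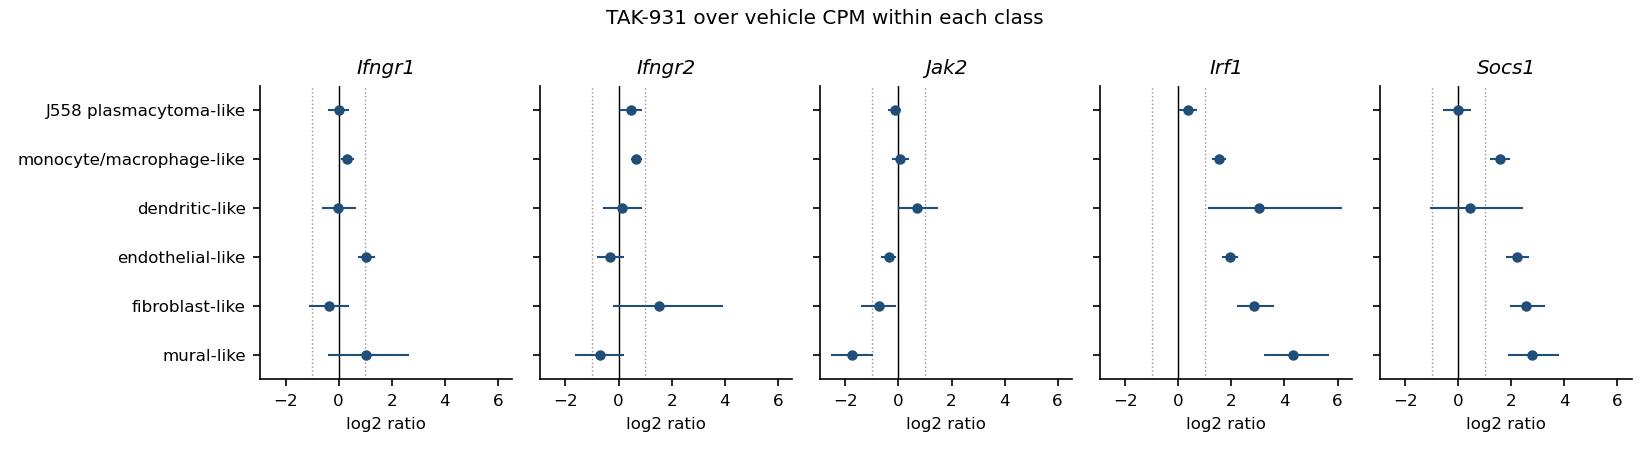
Log2 of the TAK-931 over the vehicle CPM for the members in each class with at least 10 cells in both libraries, with 95% counting intervals. Irf1 and Socs1 lie above 1 in monocyte/macrophage-, endothelial-, fibroblast- and mural-like cells, and the J558-like points for Ifngr1, Jak2 and Socs1 have intervals that include 0.

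J558-like cells held low levels of the response genes in both allografts. Irf1 stood at 11.7 CPM (11.1–12.3) in vehicle and 15.03 (12.2–18.4) in TAK-931, a log2 difference of 0.36 (0.05–0.66). It was 0.70 with cells of 2 lineages in their best class and 0.68 with the margin between class scores alone. The share of J558-like cells with an Irf1 UMI at equal depth was 4.45% and 3.30%, the opposite order, and no order is read from it. Socs1 stood at 6.04 and 5.95 CPM (-0.02, interval -0.53 to 0.45), and at a difference of 0.17 with the margin alone. Leaving out the 10 highest cells of each library gave -0.050 for Irf1 and -0.93 for Socs1, but took 39.6% and 57.9% of the TAK-931 UMIs against 3.69% and 7.53% of the vehicle ones, which lowers both ratios by construction. The TAK-931 values come from 91 cells with a median of 70878 UMIs, against 2964 vehicle cells with a median of 42457.5.

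Macrophage-like cells with high and with low complement C1q were alike in direction for Irf1 and Socs1. In C1q-high cells (128 vehicle and 1190 TAK-931) Irf1 stood at 64.3 and 201 CPM, a log2 difference of 1.64 (1.39–1.91), and in C1q-low cells (73 and 734) at 84.8 and 199.6 CPM, a difference of 1.23 (0.84–1.66). Socs1 differed by 1.68 (1.27–2.13) and 1.27 (0.67–1.93). Ifngr1 differed by 0.49 (0.25–0.75) in C1q-high and by -0.10 (-0.44 to 0.26) in C1q-low cells. The split is a threshold of 10 C1q UMIs per 10000, and 3 vehicle and 109 TAK-931 cells lay near it.

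Known interferon gamma target genes (16 listed, 15 in the files, Cxcl11 being the one not among them) were higher in the same classes. Which signal raised them, interferon gamma or another such as type I interferon, was not tested. In monocyte/macrophage-like cells 8 of 14 were at least 2-fold higher and none lower, against 13.3% higher and 9.09% lower among all genes. The median log2 difference was 1.31 against -0.01 over all genes. Nos2, the inducible nitric oxide synthase, stood at 0.778 and 6.76 CPM from 2 vehicle UMIs (8.68-fold, log2 interval 1.25–6.17). Iigp1 and Irgm1, immunity-related GTPases, stood at 45.5 and 251 CPM (5.51-fold) and at 59.2 and 285 CPM (4.82-fold). Cd274 stood at 68.1 and 245 CPM (3.599-fold). The other 6, among them Cxcl9 (374 and 540 CPM) and the immunoproteasome gene Psmb8 (488 and 608 CPM), were under 2-fold.

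Endothelial-like cells had 14 of 15 target genes at least 2-fold higher, against 10.9% of all genes. The median log2 difference was 2.17 against -0.13 over all genes. Cd274 stood at 6.81 and 93.3 CPM, 13.7-fold higher, and Gbp5, a guanylate-binding protein, at 19.7 and 165.5 CPM, 8.38-fold higher. Ciita, the master regulator of MHC class II genes, had no vehicle UMI and 57 in TAK-931, at least 8.92-fold higher against a floor of 3 UMIs over the class. Igtp, another immunity-related GTPase, was 5.99-fold higher. In fibroblast-like cells 13 of 13 were higher, against 12.6% of all genes (median 3.27 against -0.19). Cxcl10 stood at 2.36 and 1017 CPM from 1 and 1189 UMIs. Cxcl9 stood at 7.09 and 748 CPM from 3 and 874 UMIs (log2 interval 5.169–9.002). Gbp5 rested on 1 and 50 UMIs and Nos2 on 2 and 82.

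In mural-like cells 12 of 12 were higher, against 18.1% of all genes, with a median of 3.11 against 0.16. Cxcl10 had no vehicle UMI and 430 in TAK-931, at least 91.7-fold higher, and Irgm1, Igtp and Iigp1 were 14.0-, 12.5- and 10.4-fold higher. Dendritic-like cells had 9 of 13 higher, against 22.8% of all genes, with a median of 3.43 against 0.15. With the 7 genes that had no vehicle UMI set at their bound, 8 were higher and the median was 1.13. In these cells Cxcl10 was at least 12.1-fold, Irgm1 at least 8.27-fold, Iigp1 at least 6.21-fold and Gbp2 at least 3.48-fold higher. Over all kept cells 15 of 15 were higher, with a median of 4.37 against 0.33 over all genes, of which 37.3% were higher. The vehicle library held 14 fibroblast-like and 16 mural-like cells, which limits every ratio drawn from these classes.

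Markers of other cell types moved with the target genes in these classes. The summed level of the 7 macrophage markers was 13.6 CPM in vehicle and 242 in TAK-931 endothelial-like cells, 102 and 126 in fibroblast-like, 5.63 and 113 in mural-like and 400.4 and 1276 in dendritic-like cells, against 11697 and 13380 in monocyte/macrophage-like cells. The 5 T markers stood at 0 and 18.5 CPM in endothelial-like, 26.0 and 145 in fibroblast-like, 5.89 and 14.1 in dendritic-like and 2.72 and 29.0 in monocyte/macrophage-like cells, and the other way in mural-like cells, at 194 and 68.4. The median mitochondrial share in endothelial-like cells was 4.62% and 7.69%. Their part in the target-gene values was not tested.

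**Figure D4:**
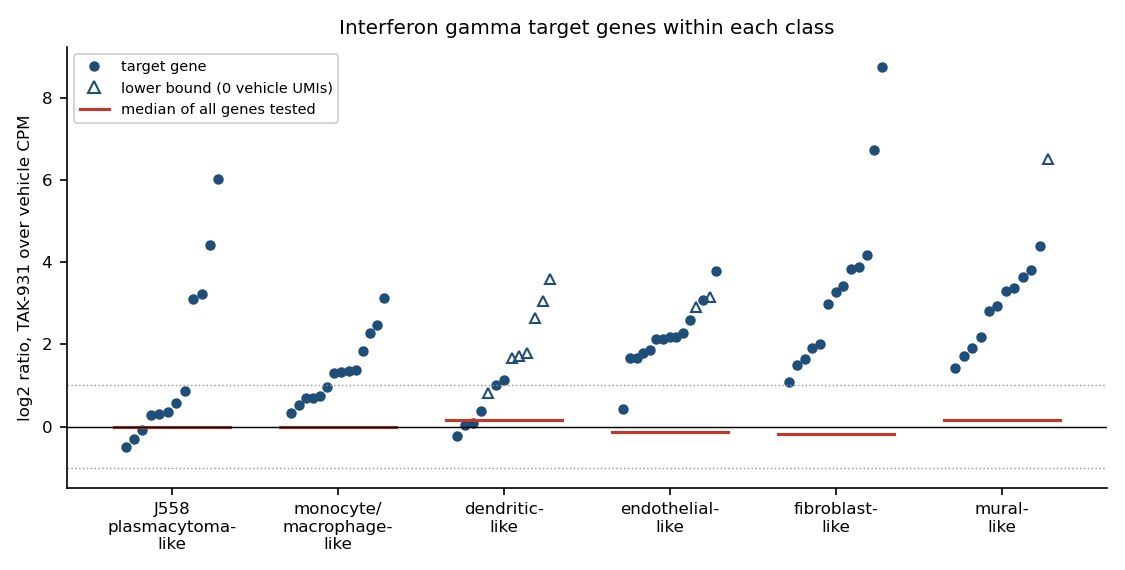
Log2 of the TAK-931 over the vehicle CPM of each interferon gamma target gene by class, with the median over all genes of the class marked. Most targets lie above 1 in endothelial-, fibroblast- and mural-like cells, 8 of 14 do so in monocyte/macrophage-like cells, and 8 of 12 lie below 1 in J558-like cells.

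In J558-like cells the target genes gave 4 of 12 at least 2-fold higher and none lower, against 9.28% higher and 7.63% lower among all genes. The median was 0.46 against -0.02 over all genes. The 4 higher ones were Cxcl9, Cxcl10, Gbp5 and Iigp1. They stood at 4.38, 5.01, 0.783 and 2.98 CPM in the TAK-931 J558-like cells, and free RNA alone would give 5.76, 2.92, 0.445 and 3.33 CPM. Cxcl10 (3.43–7.07) lay above its free-RNA level by more than counting error, and the others did not. Several more abundant targets differed little between treatments in these cells. Psmb8 stood at 249 and 309.6 CPM, Psmb9 at 105 and 98.96 and Cd274 at 47.3 and 60.0. Tap1, the peptide transporter of antigen presentation, stood at 20.4 and 16.6. Irgm1, at 8.57 and 12.8 CPM, differed more (log2 0.58, interval 0.24–0.91).

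Of the 14 pathway partners, which include the other kinase, the STAT and IRF factors, phosphatases and the type I interferon receptor, between 1 and 6 were at least 2-fold higher within a class. In monocyte/macrophage-like cells 1 of 14 was at least 2-fold higher, against 13.3% of all genes, namely Stat2, at 17.9 and 44.8 CPM (log2 1.32, interval 0.90–1.78), and the median was 0.37 against -0.01. In endothelial-like cells 2 of 14 were higher against 10.9% (median 0.16 against -0.13), with Irf8 at 47.7 and 126 CPM. The other, the phosphatase gene Ptpn6, had 0 and 42 UMIs there (13.4 CPM in TAK-931). It stood at 232 CPM in TAK-931 monocyte/macrophage-like cells, and a part from RNA of such cells was not tested. In fibroblast-like cells 3 of 13 were higher against 12.6% (median 0.62 against -0.19): Socs3, the relative of Socs1 that is raised by STAT3 signals, at 120.5 and 527 CPM, and Irf2 and Stat2. Mural-like cells had 4 of 13 higher against 18.1% (0.73 against 0.16), with Stat3 at 90.1 and 184 CPM. Irf8 (11.3 and 70.2 CPM) and Stat2 (11.3 and 27.0 CPM) each rested on 4 vehicle UMIs. The log2 interval of Stat2 there (-0.39 to 3.31) held 0. Dendritic-like cells had 6 of 14 higher against 22.8% (0.82 against 0.15), with the phosphatase gene Ptpn2 at 17.7 and 64.5 CPM from 3 vehicle UMIs, Stat3 at 118 and 303 CPM and Irf9 at 29.4 and 65.5 CPM from 5 vehicle UMIs (log2 interval -0.14 to 2.82). J558-like cells had 2 of 14 higher against 9.28% (-0.04 against -0.02), both under 3 CPM. No partner was 2-fold lower in any of these 6 classes.

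Genes that act upstream of Ifng did not all stand highest in the same class of the TAK-931 allograft. Il12b, a subunit of the cytokine interleukin 12, stood at 679 CPM (628–732) in dendritic-like cells, against 0.469 in monocyte/macrophage-like cells. In the 10 vehicle dendritic-like cells it stood at 600.5 CPM. Il12rb2, the signalling chain of the interleukin 12 receptor, stood at 159 CPM (132–191) in NK-like and 37.6 (33.8–41.7) in CD8 T-like cells, and Eomes at 313 and 154. Stat4, the transcription factor below that receptor, stood at 161 in CD8 T-like, 146 in NK-like, 99.6 in CD4 T-like and 80.6 in dendritic-like cells. Tbx21 stood at 32.4 (20.8–48.2) in NK-like and 20.3 (17.5–23.4) in CD8 T-like cells, with intervals that overlap, and Il18r1, the interleukin 18 receptor, at 79.6 in CD4 T-like and 73.9 in CD8 T-like cells.

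Il18, the cytokine that acts with interleukin 12 to raise Ifng, differed in direction between classes. Monocyte/macrophage-like cells stood at 119 CPM in vehicle and 37.1 in TAK-931 (305 and 1187 UMIs), a log2 difference of -1.68 (-1.86 to -1.49). J558-like cells stood at 2.07 and 6.26 CPM (273 and 40 UMIs), a difference of 1.60 (1.08–2.08), and all kept cells at 4.28 and 19.9 CPM, a difference of 2.22. In monocyte/macrophage-like cells 8 of 10 upstream genes were at least 2-fold higher and 1 lower, against 13.3% and 9.09% of all genes (median 1.41 against -0.01). But all 8, among them Il18rap, Il12rb2, Il12rb1 and Stat4, stood at 3.13 CPM or below in TAK-931 and at 3 or fewer vehicle UMIs. With those lacking a vehicle UMI at their bound, 4 were higher and the median was 0.19. In endothelial-like cells 4 of 4 were higher against 10.9% (1.90 against -0.13), with Il15, which sustains NK and CD8 T cells, at 8.85 and 37.4 CPM, 4.22-fold higher. The other 3, Il18rap, Eomes and Stat4, rested on 2 or fewer vehicle UMIs and stood at 4.47 CPM or below, with intervals that held 0. Dendritic-like cells had 2 of 5 higher against 22.8% (0.18 against 0.15), of which Stat4 stood at 23.6 and 80.6 CPM. With 1 gene at its bound, 1 was higher and the median was -0.43. Fibroblast-like cells had 1 of 2 higher against 12.6% (1.32 against -0.19), Il18rap from 1 and 13 UMIs. J558-like cells had 3 of 5 higher and 1 lower, against 9.28% and 7.63% (1.48 against -0.02). The higher ones were Il18, Stat4 (74 and 10 UMIs) and Il12rb2 (12 and 2 UMIs, log2 interval -1.42 to 3.95). The lower one was Il12rb1 (210 and 4 UMIs, interval -3.23 to 0.03). Mural-like cells held none with enough UMIs. Over all kept cells, where class makeup enters and 37.3% of all genes were higher with a median of 0.33, 11 of 11 upstream genes were higher (median 5.19) and, of the partners, 9 of 14 (median 1.34).

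Genes with the most similar pattern were found over the 9 sums of class and library that held at least 50 cells, by Pearson's r of log2(CPM + 5). These sums share libraries, so r is a description. For Ifng they were Tbx21 (r = 0.992), Themis (0.986), which sets T-cell receptor signalling in thymocytes, and Tff1 (0.986). Ifng stood at 91.2 CPM in the TAK-931 CD8 T-like sum, at 16.9 in CD4 T-like and at 3.29 or below in the others. Its r values therefore rest largely on 1 sum. The 43 NK-like cells were too few to enter, and there Ifng lay below its CD8 T-like level while Tbx21 did not. Ifngr1 was most like Mier1 (0.986), Heca (0.976) and Spata13 (0.973), and Ifngr2 most like Map3k8 (0.982), a kinase of inflammatory signalling in myeloid cells, Gpx1 (0.981) and Ctns (0.977). Jak2 was most like Trib2 (0.965), Eid2 (0.961) and Bmpr2 (0.961). For Irf1 the 3 were Irgm1 (0.988), Actr1a (0.958) and Ccdc9 (0.955), and for Socs1 Parp9 (0.974), Gbp5 (0.971) and Olfr56 (0.957). Irgm1 and Gbp5 are also in the list of interferon gamma target genes.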

How the data were processed

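The authors captured single-cell RNA of 2 J558 allografts, 1 per treatment, with a 3′ droplet kit. Values as deposited are raw UMI counts of each gene in each barcode, not normalized, from Cell Ranger 6.0.0 and build mm10 per the submitters' processing notes; the methods name a human build, while the features are mouse genes. The libraries held 4565 barcodes with 144767193 UMIs (vehicle) and 6558 barcodes with 77369283 UMIs (TAK-931).

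A barcode was kept if it showed more than 2000 genes and its mitochondrial share stayed below 15%. Each marker's UMIs per 10000 were divided by their 99th percentile and capped at 1, and a cell took the class with the highest mean over 11 marker lists, if it carried at least 3 of its markers and scored at least 0.1. Cells were set apart as of 2 lineages if the second score exceeded 50% of the first, or, by a criterion added after seeing the data, if they carried at least 3 markers of another lineage and 25% of the marker UMIs of that class's median cell. No doublet caller was run. T-like cells were divided by Cd8a and Cd8b1 against Cd4. For an alternative naming, cells were clustered (scanpy 1.11.5, leidenalg 0.10.2, resolution 1).

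The summed UMIs of each class in each library were turned into CPM with exact Poisson intervals. Ratios had exact conditional intervals and shares exact binomial ones, all at 95% and for counting error only. A gene was counted as higher or lower at 2-fold with at least 10 UMIs in the 2 sums together, 0.5 being added where a sum was 0. Bounds used a floor of 3 UMIs over the class. The level free RNA would give was the gene's CPM in the whole library times the median, over abundant markers of other lineages, of the class CPM over the library CPM. Scripts were tested on simulated counts. Work was done in Python 3.11.15 (scipy 1.17.1, numpy 2.4.6, pandas 2.3.3).

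The 6 genes, the gene lists and the markers were chosen with earlier results of these data known. Genes were named as the up to 4 of each list with the largest fold in each direction in a class, among those with at least 50 UMIs in the higher library, besides the members, abundant examples, the genes behind a count of 5 or fewer and those said to be chosen later. Values of 1 listed pathway partner are not reported here.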

Additional observations from a re-analysis of the deposited data

Results flagged for a closer look

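Jak2 had differences of opposite sign in different classes. Its log2 difference (TAK-931 over vehicle) was 0.70 (0.01–1.46) in dendritic-like cells, -0.74 (-1.36 to -0.11) in fibroblast-like and -1.74 (-2.52 to -0.99) in mural-like cells. The difference between these classes was not tested, since each treatment had 1 library. The vehicle classes held 10, 14 and 16 cells. With cluster classes the fibroblast-like value was -0.21 and the mural-like value -0.32.

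Ifng was also found outside the kept cells. In the 1663 TAK-931 barcodes with 2000 or fewer genes and under the mitochondrial limit it stood at 38.1 CPM (32.7–44.1), from 180 UMIs in 83 barcodes, above the 3.95 CPM (2.04–6.89) of the 950 such vehicle barcodes. Barcodes with at least 3 T markers held 62.8% of those TAK-931 UMIs, and the whole set held 12.8% of the library's Ifng. The vehicle set held 12 UMIs, or 54.5% of the Ifng of its library.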

How the results depend on the processing

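Of 306 values under alternatives, 269 stayed within their counting interval, 35 moved, and 2 whose interval had excluded 0 changed sign; no cause was tested. Values whose interval held 0 changed sign too, among them Ifngr1 in fibroblast-like (-0.38 to 0.51) and Ifngr2 in endothelial-like cells (-0.31 to 0.49) with cluster classes. Irf1 stayed at 1.47 to 2.00 (log2) in monocyte/macrophage-like, 1.88 to 2.53 in endothelial-like, 2.77 to 4.81 in fibroblast-like and 3.53 to 4.69 in mural-like cells, and Socs1 at 1.43 to 2.50, 1.93 to 2.50, 2.49 to 3.18 and 2.51 to 2.93. The CD8 T-like share of Ifng was 68.3% with over 1000 and 68.2% with over 500 genes per barcode. It was 77.8% with cells of 2 lineages in their best class. With the marker margin alone, without the criterion that was added after seeing the data, it was 74.7%. Without the 10 highest cells of every class it was 84.9%. Those cells took 33.0% of the UMIs of CD8 T-like and 88.9% of those of monocyte/macrophage-like cells. The Ifng difference over whole allografts was 6.95 with over 500 genes and 6.71 as a mean of cells. The share of CD8 T-like cells with Ifng was 12.1% thinned to 2000 UMIs and 50.7% unthinned. Ifngr1 in J558-like cells was 1.47 with cluster classes, 1.52 with cells of 2 lineages included and 1.503 with the margin alone, and Irf1 0.70 and 0.68 with the latter 2. Leaving out the 10 highest cells of each library takes unequal shares of classes of unequal size, which by itself moves a ratio. So treated (10 of 91 and 10 of 2964 cells), J558-like values were -0.47 for Ifngr1, -0.13 for Ifngr2, -0.75 for Jak2, -0.050 for Irf1 and -0.93 for Socs1, and monocyte/macrophage-like values 0.61 for Ifngr1, 0.37 for Jak2, 2.00 for Irf1 and 2.50 for Socs1. No paired analysis was possible because each treatment had 1 library, which also left no replicate to leave out.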
